A study of Gasterosteus aculeatus with 9 samples.

Results

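Receptors of the hormones that set how a fish gill handles salt and water were followed in gill RNA of wild threespine sticklebacks (*Gasterosteus aculeatus*). The members were 10 gene names, namely the receptors for prolactin (PRLR), growth hormone (GHR), insulin-like growth factor 1 (IGF1R), insulin (INSR), glucocorticoids (GCR), mineralocorticoids (MCR) and thyroid hormone (THA and THB), the cortisol-inactivating enzyme 11-beta-hydroxysteroid dehydrogenase type 2 (DHI2) and the receptor-bound immunophilin FKBP5. A transcript was taken as a member when the first protein name of its annotation (a Swiss-Prot entry name, given by similarity to proteins of other species) was one of these. The rule found 46 transcripts of 98643, in 17 assembled genes of 53675. They carried 9 of the 10 names, since no transcript had INSR at any place in its annotation, and INSR therefore has no value here. The stickleback has insulin receptor genes (insra and insrb), so their transcripts may carry another entry name, which was not tested. A name given by similarity does not separate close paralogs, so GCR, THA and the others are groups of transcripts and not single mapped loci.

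Gills of 9 fish were sequenced, 3 from each of 3 stations of the River Boye catchment in Germany. The chloride concentration was 12.912 mg/L at station B, which served as the control, 26.378 mg/L at station A (mid-salinity) and 32 mg/L at station C (high salinity). All fish were caught wild by electrofishing and were neither treated nor crossed, their age and sex are not given in the sources used here, and each library holds the gill of 1 fish. With 1 stretch of stream per chloride level, chloride and every other feature of a station cannot be told apart.

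Prolactin is the hormone of freshwater life in fish, and acts through its receptor on the gill cells that take up ions, while growth hormone, insulin-like growth factor 1 and cortisol are known for preparing the gill of many fish for seawater. Cortisol is the main ligand of both corticosteroid receptors in teleosts, which have no aldosterone, and DHI2 removes it by turning it into cortisone. Thyroid hormone receptors sit in the nucleus and switch genes on when they bind the hormone, and in the gill they are known mostly from the transformation of migrating salmon.

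Estimated counts per fish summed to between 22049066 and 46214540, and a fish with at most 3 counts of a transcript was treated as lacking it, which is 0.0649 to 0.136 CPM (the count scaled by the total of its library). This limit covers counting error only. Levels below are CPM after TMM normalization, a scaling that sets libraries equal over the bulk of their transcripts. One library stood apart. Station C replicate 2 had a TMM factor of 0.572, against 1.002 to 1.151 in the other 8 fish, and lay outside the range of the other 8 for 60.3% of 24217 summed genes, while each other fish did so for 12.5% to 23.1%. Its sums of marker genes went against its label, though not each single name did. The 9 measured of 12 liver names summed to 108964.2 CPM there and to 78.1 to 263.6 CPM in the other 8 fish, in which the fibrinogen chains FIBB and FIBG, VTNC and HEMO had at most 3 counts each. CO3 (68087.6 CPM) and TRFE (39950.8 CPM) made up most of this liver sum, and CO3 (73.7 to 260.1 CPM) most of it in the other 8. Each of the 9 liver names was above the range of the other fish. The 10 measured of 12 ionocyte names summed to 965.2 CPM, against 2363.3 to 10801.4 CPM. The 8 epithelial names summed to 2468.6 CPM, against 5626.1 to 10558.9 CPM. The 8 measured of 11 skeletal muscle names summed to 27325.2 CPM, against 747.0 to 8398.3 CPM. Some names departed from their sums. The epithelial CADH1 was at 512.3 CPM in this fish, against 37.8 to 54.2 CPM in the others. The ionocyte name CAHZ (5.9 CPM) was also above their range. K1C18 (epithelial), VATB2 (ionocyte) and TNNI2 (muscle) were inside it. The remaining ionocyte and epithelial names were below it. Fold changes of the members at station C are therefore given with and without this fish, and a change in its members can be a change in the cells present as well as in RNA per cell, which cannot be told apart in whole tissue.

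Summed per name, the receptors were measured in every gill, and FKBP5 in 5 of 9. Station C replicate 2 was outside the range of the other 8 fish for 8 of the 9 names, above it for GHR, GCR, MCR, DHI2 and THB and below it for PRLR, IGF1R and THA. Over all summed genes this fish was above the range for 27.3% and below it for 33.0%. With CPM of the library total instead of TMM, GCR moved from above to below the range, and DHI2 and THB moved inside it.

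**Figure D1:**
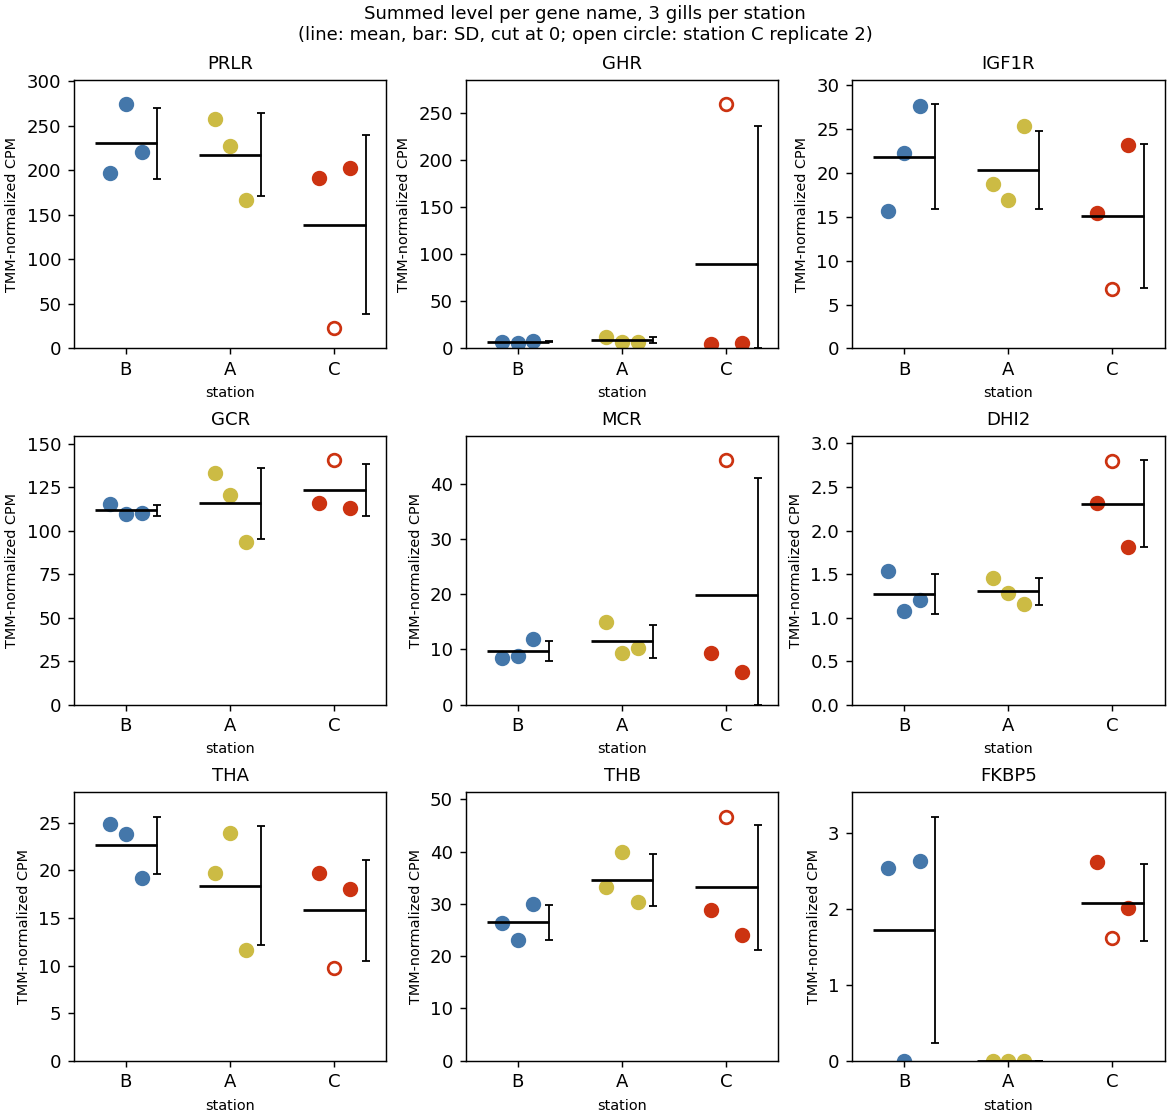
Summed level of each of the 9 measured names (vertical axis, TMM-normalized CPM) in the 3 gills of stations B, A and C, as 1 point per fish with the mean (line) and SD (bar, cut at 0). The open circle is station C replicate 2, which holds the highest GHR value (258.7 CPM) and the lowest PRLR value (22.9 CPM), while the filled points of the 3 stations lie in the same range for most names.

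PRLR, the prolactin receptor, was represented by 14 transcripts in 2 assembled genes. Its summed level was 196.7, 274.3 and 220.9 CPM in the fish of station B, 258.3, 227.2 and 166.7 CPM at station A and 191.8, 22.9 and 202.2 CPM in replicates 1, 2 and 3 of station C. The stations overlapped, and the one value apart from the rest was that of station C replicate 2, 9.25-fold below the median of the other 8 fish (211.6 CPM). The log2 fold change was -0.07 (SE 0.22) for A vs B, while in the comparison of C with B it was -0.73 (SE 0.75) with all fish and -0.22 (SE 0.18) without station C replicate 2. None passed the quasi-likelihood test of edgeR, with adjusted p of 0.981, 0.865 and 0.811.

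The low PRLR value of that fish was not shared equally by both assembled genes. DN552_c0_g2, whose 9 transcripts match the prolactin receptor of tilapia, was at 0.65 CPM in station C replicate 2 and at 94.7 to 166.0 CPM in the other 8 fish. DN2953_c0_g1, with 5 transcripts, was at 22.2 CPM there and at 72.0 to 114.3 CPM in the other 8. Of these 5, the 3 transcripts i11, i17 and i26 also match MALT1, a signalling protein of immune cells, so that their reads may include a second gene. The sums of the ionocyte names (965.2 CPM) and of the epithelial names (2468.6 CPM) were low in the same library. The part of either in the PRLR value was not tested.

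GHR, the growth hormone receptor, whose signal makes the liver release insulin-like growth factor 1, had 4 transcripts in 3 assembled genes. Its summed level was 7.17, 6.29 and 7.55 CPM at station B, 12.2, 6.91 and 7.07 CPM at station A and 5.15, 258.7 and 5.77 CPM at station C. The station mean of C, 89.9 ± 146 CPM (SD, n = 3), rested on replicate 2, which was 37.0-fold over the median of the other 8 fish (6.99 CPM). The log2 fold change for C vs B was 3.70 (SE 1.63, adjusted p = 0.846 in edgeR), and -0.35 (SE 0.21, adjusted p = 0.764) without this fish, so that its direction turned with 1 library. For C vs A it was 3.43 (SE 1.63, adjusted p = 0.962) with all fish and -0.69 (SE 0.36, adjusted p = 0.877) without. DESeq2 gave GHR no p in either comparison with station C, as its filter on outlying counts applied. Without replicate 2 both remaining fish of station C were below all 3 of station B, where 25.5% of all summed genes did not overlap. With CPM of the library total the 2 groups overlapped for GHR (5.92 and 6.64 CPM against 7.34, 6.31 and 8.36 CPM). The higher level of station A replicate 1 carried the difference for A vs B, which was 0.33 (SE 0.29) with it and 0.00 (SE 0.23) without it.

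Of the 3 GHR assembled genes, 2 were far above the other 8 fish in station C replicate 2. DN984_c0_g3 was at 210.2 CPM there and at 3.49 to 6.49 CPM in the other 8 fish. The single transcript of DN44879_c0_g1 carries the growth hormone binding domain and also a FLYWCH domain. Whether its reads include a second gene was not tested. It was at 43.0 CPM (860.7 estimated counts) in that fish, against at most 0.266 CPM in the others, where it had no more than 9 counts. In DN11616_c0_g1 the GHR transcript was at 5.50 CPM there and at 5.45 CPM in station A replicate 1, against 1.14 to 2.77 CPM in the other 7, and with CPM of the library total station A replicate 1 was the highest (5.57 against 3.14 CPM). The same library held the liver names (108964.2 CPM) and the highest skeletal muscle sum (27325.2 CPM). The part of either in the GHR level was not tested.

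**Figure D2:**
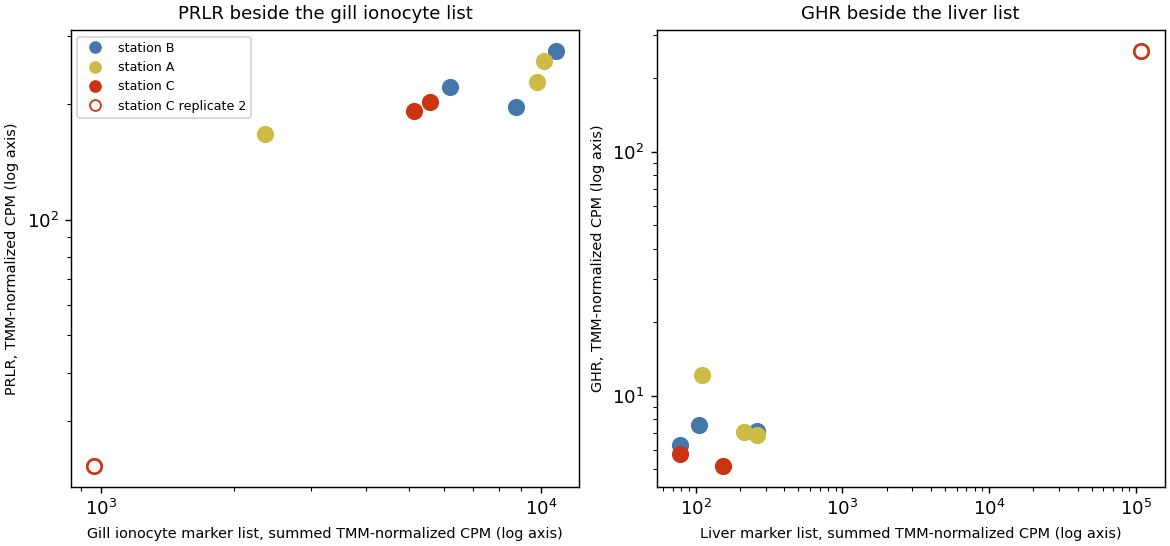
Left, the PRLR level (vertical axis, TMM-normalized CPM, log scale) of the 9 fish against the sum of the ionocyte names (horizontal axis, TMM-normalized CPM, log scale), and right, the GHR level against the sum of the liver names on the same scales. Station C replicate 2 (open circle) has the lowest ionocyte sum (965.2 CPM) with the lowest PRLR level, and the highest liver sum (108964.2 CPM) with the highest GHR level, while the other 8 fish have liver sums of 78.1 to 263.6 CPM. Its skeletal muscle sum (27325.2 CPM), also the highest, and its epithelial sum (2468.6 CPM), also the lowest, are not drawn.

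IGF1R, a tyrosine kinase receptor for insulin-like growth factors, had 3 transcripts in 3 assembled genes, of which DN9280_c0_g2 held 82.3% of the sum. Whether this sum includes reads of an insulin receptor was not tested. The summed level was 15.7, 22.3 and 27.6 CPM at station B, 18.7, 16.9 and 25.4 CPM at station A and 15.4, 6.75 and 23.2 CPM at station C. The stations overlapped, and the log2 fold change was -0.09 (SE 0.26) at station A relative to B. At station C relative to B it was -0.53 (SE 0.48), or -0.17 (SE 0.31) without station C replicate 2. DN9280_c0_g2 was at 4.50 CPM in that fish, against 11.2 to 23.7 CPM in the others, and DN9280_c0_g3 at 2.15 CPM, against 2.42 to 4.58 CPM. The remaining one, DN113384_c0_g1, passed 3 counts in 2 fish only.

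GCR, the receptor through which cortisol reaches its target genes, was at a similar level in 8 gills and somewhat above them in station C replicate 2. Its 7 transcripts in 2 assembled genes summed to 115.1, 109.3 and 110.2 CPM at station B, 133.2, 120.4 and 93.4 CPM at station A and 115.8, 140.3 and 113.1 CPM at station C. With CPM of the library total, GCR in that fish was below the others instead (80.2 against 96.7 to 136.3 CPM). The log2 fold change was 0.07 (SE 0.16) for A vs B, while for C vs B it was 0.15 (SE 0.19), or 0.04 (SE 0.10) without station C replicate 2, with adjusted p of at least 0.88. The assembled gene DN2542_c1_g1 was at 75.5 to 109.9 CPM over its GCR transcripts, and DN2542_c1_g2 at 17.9 to 29.4 CPM in 8 fish and 40.4 CPM in station C replicate 2.

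MCR, the mineralocorticoid receptor, had 2 transcripts in 1 assembled gene. It was at 8.43, 8.89 and 11.9 CPM at station B, 14.9, 9.39 and 10.2 CPM at station A and 9.38, 44.3 and 6.0 CPM at station C. Both transcripts were highest in station C replicate 2, i1 with 18.2 CPM, against 1.38 to 5.34 CPM, and i4 with 26.1 CPM, against 4.62 to 10.7 CPM. The log2 fold change for C vs B was 1.04 (SE 0.78, adjusted p = 0.846) with all fish and -0.34 (SE 0.29, adjusted p = 0.832) without it, so that the direction of MCR, like that of GHR, turned with this library.

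DHI2 protects the mineralocorticoid receptor of mammals from cortisol. It was the one name whose summed level was higher in all 3 fish of station C than in any of station B. These 2 groups did not overlap in 12.8% of all summed genes. DHI2 was at 1.53, 1.08 and 1.2 CPM at station B, 1.46, 1.28 and 1.16 CPM at station A and 2.32, 2.80 and 1.81 CPM at station C. These levels rest on 33.0 to 96.0 estimated counts per fish. The log2 fold change for C vs B was 0.87 (SE 0.35, adjusted p = 0.846 in edgeR), and 0.70 (SE 0.32, adjusted p = 0.752) without replicate 2. For C vs A it was 0.85 (SE 0.37, adjusted p = 0.962), or 0.65 (SE 0.33, adjusted p = 0.872) without this fish, and for A vs B 0.05 (SE 0.30, adjusted p = 0.991). DHI2 thus did not pass the test after adjustment, nor did it for C vs B in DESeq2, with adjusted p of 0.636 and, without replicate 2, 0.554. With CPM of the library total the groups of C and B were apart only narrowly, at 2.67, 1.6 and 2.08 CPM against 1.57, 1.08 and 1.33 CPM. The lowest of station C, 1.6 CPM, was replicate 2.

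Neither of the 2 DHI2 assembled genes alone set stations C and B apart with all fish. DN4690_c1_g1 was at 0.921 to 2.70 CPM at station C, against 0.954 to 1.41 CPM at station B. DN5804_c2_g1 was at 0.0999 to 0.988 CPM, against 0.123 to 0.204 CPM. Both transcripts of DN4690_c1_g1 list a dehydrogenase domain, and that of DN5804_c2_g1 lists no domain. The DHI2 level of the 3 fish of station C came from different transcripts. In replicate 2 it came from DN4690_c1_g1_i4 with 2.70 CPM, against 0.00 to 1.23 CPM in the other 8 fish. Replicate 1 had 1.33 CPM of DN4690_c1_g1_i1, against 0.00 to 0.649 CPM in the others, and none of i4. DN5804_c2_g1_i10, the remaining transcript, was at 0.988 and 0.884 CPM in replicates 1 and 3 and at 0.0999 CPM in replicate 2, against 0.126, 0.123 and 0.204 CPM at station B, and at 0.443, 0.237 and 0.447 CPM at station A. Replicate 2 was thus below all fish of station B, and the other 2 fish of station C above them, with 40.0 and 47.0 estimated counts against 5.0, 4.0 and 8.0. With all fish this transcript did not pass the filter on low counts of edgeR for C vs B, and DESeq2 with a filter of 1 CPM in 2 fish gave a log2 fold change of 2.15 (SE 1.00, adjusted p = 0.441). Without replicate 2 it was 2.6 (SE 0.45, adjusted p = 0.362) in edgeR, and 2.61 (SE 0.53, adjusted p = 7.23e-05) in DESeq2, which called it and no other member transcript, beside 2.51% of all transcripts. In those fits the transcript passed the filter through replicates 1 and 3 of station C alone. The DESeq2 fit without replicate 2 was added after the data were seen, so its p is not counted as support for a difference.

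FKBP5, which binds the glucocorticoid receptor complex with the chaperone HSP90 and is itself induced by glucocorticoids in mammals, was either clearly present or at 0. Its single transcript had 100.8, 0.0 and 103.4 estimated counts in the fish of station B, 0.0 in all 3 of station A and 106.3, 32.4 and 107.6 at station C, or 2.54, 0.00 and 2.64 CPM, 0.00 CPM and 2.62, 1.62 and 2.02 CPM. No protein domain was listed for this transcript, and no fish lay between 0.00 and 1.62 CPM. A value of 0.00 CPM means that no read was assigned to this 1 assembled transcript. Whether FKBP5 RNA of another form was present in those fish was not tested. The transcript was at least 21.3-fold higher at station C than at station A, taking 3 counts per fish as the level of station A. In edgeR the difference for C vs A had an adjusted p of 0.151, and of 0.198 without station C replicate 2, whereas DESeq2 called it with an adjusted p of 1.11e-08, and of 1.28e-07 without that fish. With 0.0 counts throughout station A, the transcript passed the filter on low counts through station C alone. None of these p-values is therefore counted as support for a difference. For C vs B the log2 fold change was 0.28 (SE 1.32, adjusted p = 0.961), or 0.44 (SE 1.44, adjusted p = 0.956) without station C replicate 2, with 1 fish of station B at 0. For A vs B it did not pass the filter on low counts of edgeR, and DESeq2 with a filter of 1 CPM in 2 fish gave an adjusted p of 0.064.

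THA and THB, the thyroid hormone receptors alpha and beta, had 6 transcripts each. They cannot be fully separated here, because the assembled gene DN5953_c1_g1 holds most of the reads of both, beside a transcript named for a further form (THAB) and an unnamed one. THA was at 24.9, 23.8 and 19.2 CPM at station B, 19.7, 23.9 and 11.6 CPM at station A and 19.7, 9.75 and 18 CPM at station C. THB was at 26.4, 23.1 and 29.9 CPM at station B, 33.2, 40.0 and 30.4 CPM at station A and 28.9, 46.7 and 24.0 CPM at station C. All 3 fish of station A were above those of station B for THB, though with CPM of the library total they overlapped (33.9, 43.9 and 31.5 CPM against 27.1, 23.2 and 33.1 CPM). The log2 fold change of THB for A vs B was 0.40 (SE 0.17, adjusted p = 0.873), and that of THA -0.29 (SE 0.28, adjusted p = 0.932). For C vs B THB was at 0.34 (SE 0.30) with all fish and at 0.01 (SE 0.17) without replicate 2, and THA at -0.51 (SE 0.31) and -0.26 (SE 0.17). The whole assembled gene DN5953_c1_g1, with all its names added, was at 48.7 to 71.8 CPM in the 9 fish and had a log2 fold change of 0.14 (SE 0.17) for A vs B, while C vs B gave 0.06 (SE 0.19), or -0.07 (SE 0.12) without replicate 2.

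Within the thyroid receptors the THB transcripts i3, i8 and i10 of DN5953_c1_g1 were at 9.55 to 23.3, 4.89 to 10.5 and 4.35 to 10.1 CPM, and each was present in every fish. The THA transcripts i6, i7 and i13 of the same assembled gene were at 6.68 to 14.3, 0.706 to 8.22 and 0.202 to 5.11 CPM. Station A replicate 3 had the lowest i7 level and station C replicate 2 the lowest i13 level. The minor THA transcript DN2559_c1_g1_i16, singled out after its values were seen, had 14.7, 19.5 and 11.7 estimated counts in the fish of station A, 0.0 in all 3 of station C, and 23.3, 13.1 and 0.0 at station B. It held 1.44% of the THA sum. Added over all its transcripts, DN2559_c1_g1 was at 1.97 to 2.48 CPM at station A and 2.56 to 3.68 CPM at station B. At station C it was at 1.2 CPM in replicate 2 and at 3.1 to 3.24 CPM in the other 2 fish. Whether reads were divided differently among these transcripts was not tested. DESeq2 called transcript i16 for C vs A (adjusted p = 2.29e-05, or 0.000406 without station C replicate 2), and edgeR did not (adjusted p = 0.145 and 0.261). Transcript i16 passed the filter on low counts through the fish of station A alone, so this call is not counted as support for a difference. With the FKBP5 transcript it was 1 of 2 member transcripts that DESeq2 called in this comparison, beside 2.65% of all transcripts (3.97% without that fish, where it called the same 2), while edgeR called none, beside 0.0%.

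Counted over the names, no member was called in any comparison by the quasi-likelihood test of edgeR, whose calls required an adjusted p no higher than 0.05 with a change of more than 1 in log2 units. For A vs B 0 of 8 names tested were called, beside 0.0% of all 21626 summed genes, and 0 had an unadjusted p below 0.05, beside 5.52% of all. For C vs B 0 of 9 were called, beside 0.0% of 21950, and 1 (DHI2) had an unadjusted p below 0.05, beside 3.73%, and without station C replicate 2 none did, beside 6.2%. For C vs A 0 of 9 were called, beside 0.00455% of 21971, and 1 (FKBP5) had an unadjusted p below 0.05, beside 4.22%, and the same 1 without that fish, beside 6.18%. In an F test over the 3 stations together 0 of 9 passed adjustment, beside 0.0% of all, and 3 of 9 (GHR, DHI2 and FKBP5, with adjusted p of 0.813, 0.813 and 0.806) had an unadjusted p below 0.05, beside 5.9%. Without station C replicate 2 this was left for FKBP5 of the 3 (adjusted p = 0.777), beside 6.28%. DESeq2 called FKBP5 for C vs A, 1 of 9 names beside 1.23% of all summed genes (1.74% without station C replicate 2, again with FKBP5 alone), and no member for A vs B (0.509% of all) or C vs B (0.278% of all, and 0.647% without that fish). FKBP5 entered the C vs A tests through the fish of station C alone, so its results there are not counted as support for a difference.

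**Figure D3:**
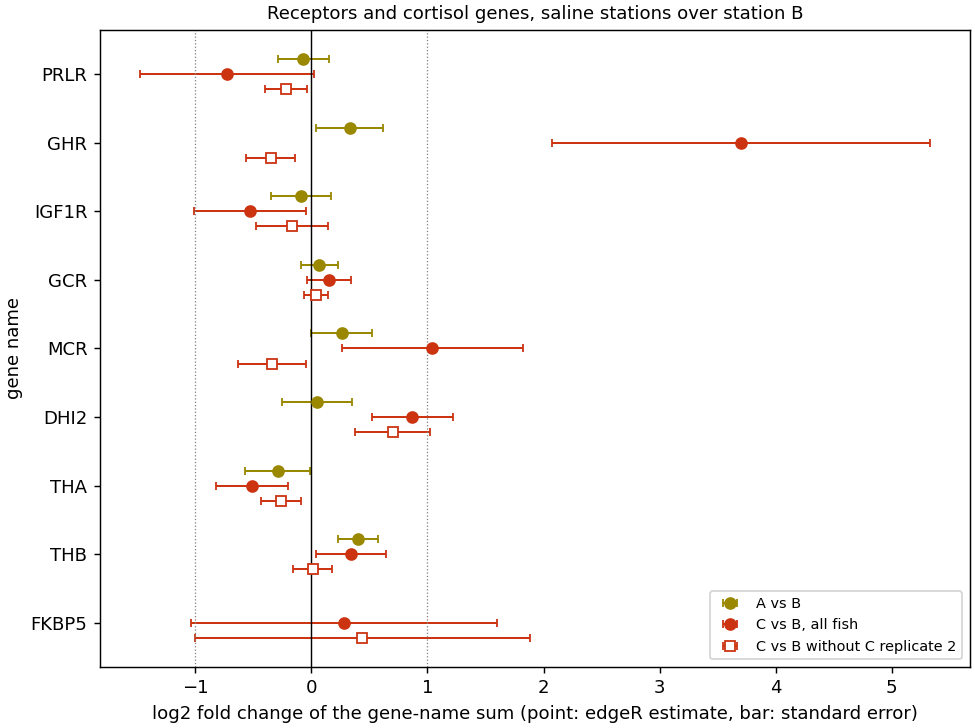
Log2 fold change of each summed name (horizontal axis, edgeR estimate with its standard error as bar) for A vs B, for C vs B with all fish and for C vs B without station C replicate 2 (open squares), with dotted lines at an absolute log2 fold change of 1. GHR lies at 3.70 for C vs B with all fish and at -0.35 without the 1 library, and DHI2 is on the same side with and without it (0.87 and 0.70), and FKBP5 has no A vs B value because it did not pass the filter.

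Groups whose fish did not overlap were counted next. For A vs B this held for 1 of 9 names (THB, higher), beside 11% of all summed genes. For C vs B it held for 1 of 9 (DHI2, higher), beside 12.8%, and without station C replicate 2 for 2 of 9 (DHI2 higher and GHR lower), beside 25.5%. For C vs A it held for 2 of 9 (DHI2 and FKBP5, higher), beside 10.3%, and without replicate 2 for 5 of 9 (DHI2 and FKBP5 higher, GHR, MCR and THB lower), beside 22.1%. Of these last 5 names, MCR and THB overlapped with CPM of the library total. MCR was at 6.9 and 10.8 CPM at station C, against 10.3 to 15.3 CPM at station A. THB was at 27.6 and 33.3 CPM, against 31.5 to 43.9 CPM. The 3 comparisons share fish with each other and are not independent.

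Transcripts of the same assembled gene had counts in different fish, which the sums do not show. The pairs set side by side below, i11 and i3 for GCR and i12 and i7 for PRLR, were chosen after their values were seen. The counts are estimates that divide reads among similar assembled transcripts, so that 0.00 CPM means that no read was assigned to a transcript, and alleles, splice forms and the division of reads cannot be told apart here. Of the 46 transcripts 21 had more than 3 counts in every fish, and 25 had at most 3 counts in at least 1 fish, 15 of them in station C replicate 2. The matching shares over all 98643 transcripts were not taken, so whether these counts are unusual was not tested. For GCR, transcript i11 of DN2542_c1_g1 was at 35.6 to 61.9 CPM in 4 fish and at 0.00 CPM in the other 5, while i3 was at 18.2 to 64.5 CPM in exactly those 5 and at 0.00 CPM in the 4. Transcript i1 was present in the same 5 fish as i3, with 2.49 to 43.8 CPM. The 4 fish were 1 of station B, 2 of station A and 1 of station C, so that each station had fish of both kinds. Transcript i12 of this assembled gene (13.9 to 33.7 CPM) and the single transcript of DN2542_c1_g2 were present in all 9 fish.

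PRLR showed a like pattern in DN552_c0_g2. Transcript i12, which held 17.3% of the PRLR sum, was at 116.3, 42.9 and 67.2 CPM in the 3 fish of station A, at 41.8 CPM in 1 fish of station B and at 35.6 CPM in 1 of station C, and at 0.00 CPM in the other 4. Transcript i7, with 26.1% of the sum, was at 81.7, 139.4 and 54.7 CPM at station B, at 0.00, 51.4 and 0.00 CPM at station A and at 84.1, 0.65 and 47.0 CPM at station C. Of the 9 fish 2 had i12 only, 4 had i7 only and 3 had both. The transcripts i1, i3 and i5 were present in the same 5 fish as i12, and i2 and i4 in 3 fish, all without i12. Both i12 and i7 carry the ligand-binding domain and a membrane-spanning segment in the annotation. In DN2953_c0_g1 the transcripts i13 and i11 were present in all 9 fish, i13 with 12 CPM and i11 with 1.75 CPM in station C replicate 2, against 39.2 to 55.1 and 14.3 to 34.6 CPM in the others. No PRLR transcript was called for A vs B or C vs B by edgeR or by DESeq2 after filterByExpr, beside 0.0% of all transcripts tested in both comparisons with edgeR, and with DESeq2 1.13% for A vs B against 1.41% for C vs B.

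**Figure D4:**
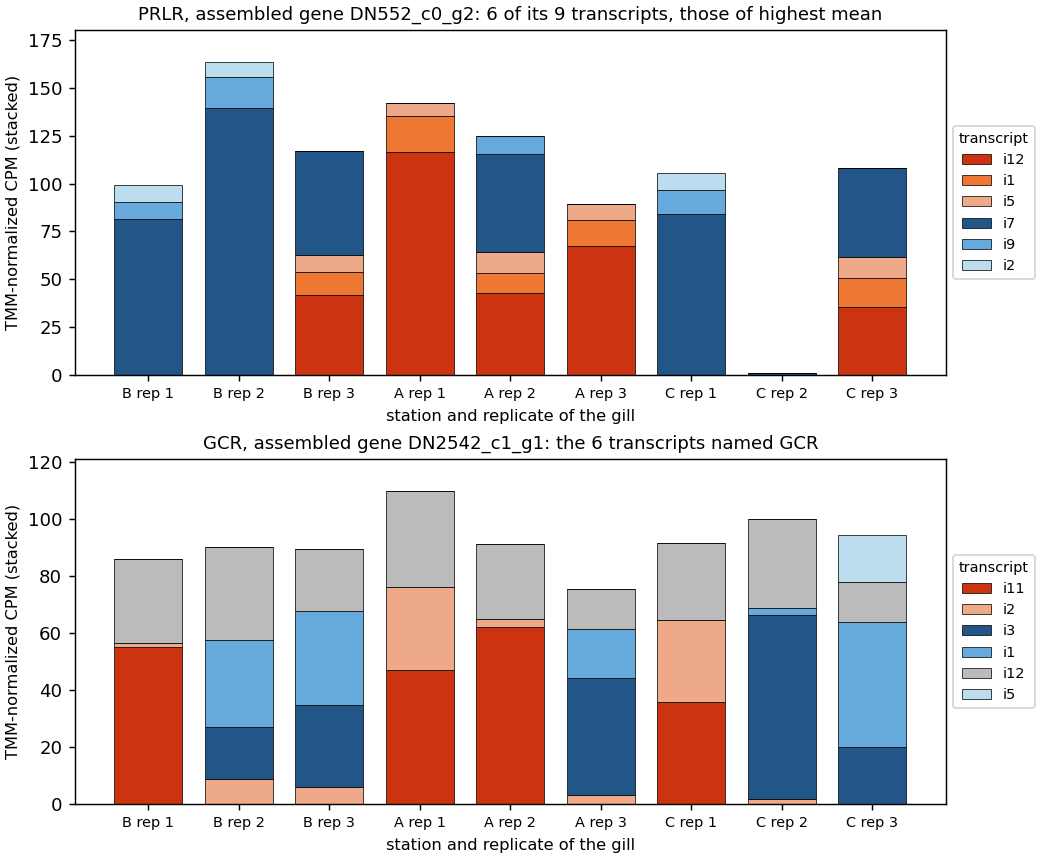
Stacked levels (vertical axis, TMM-normalized CPM) of transcripts of the PRLR assembled gene DN552_c0_g2 (top, 6 of its 9 transcripts) and of the GCR assembled gene DN2542_c1_g1 (bottom, its 6 transcripts named GCR) in each of the 9 gills (horizontal axis). In the GCR panel every fish has either i11 or i3, and in the PRLR panel i12 is present in 5 fish and i7 in 7, while the bar for station C replicate 2 in the PRLR panel is near 0 (0.65 CPM).

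Across all 46, 6 transcripts had at most 3 counts in every fish of a station. Of these the FKBP5 transcript was the one that reached 1 CPM in every fish of another station, absent from A and present throughout C. No share over all 98643 transcripts was taken for either count, so whether these counts are unusual was not tested. The 17 assembled genes held 9 further transcripts with another name or none, 5 of them unnamed. Added over all transcripts of an assembled gene, whatever their name, DN2542_c1_g1 was at 103.3 to 122.6 CPM in the 9 fish.

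Genes around the receptors were followed in 4 lists of entry names, chosen with earlier results of these data known. No name of any list was called by edgeR in any comparison, and none by DESeq2 with all fish. Without station C replicate 2 DESeq2 called SOCS2 (adjusted p = 0.0308) and IOD1 (adjusted p = 2.29e-05) for C vs B. For C vs A without that fish it called IOD1 (adjusted p = 0.00331) and IBP6 (adjusted p = 0.00401). In both comparisons this was 1 of 18 tested names of the growth hormone list and 1 of 10 of the thyroid list. None was called in the corticosteroid list (12 tested) or the list of other receptors (11 and 12 tested). Over all summed genes the share called was 0.647% for C vs B and 1.74% for C vs A, with 2 fish of station C. For A vs B the growth hormone, prolactin and insulin-like growth factor list had 18 of 29 names tested, 9 higher and 9 lower, with a median log2 fold change of 0.02, the same as over all summed genes. The corticosteroid list had 12 of 24 tested (6 higher, 6 lower, median -0.04), the thyroid list 10 of 20 (2 higher, 8 lower, median -0.05) and the list of other hormone receptors for salt and water balance 10 of 19 (6 higher, 4 lower, median 0.05). The smallest p of each belonged to the binding protein IBP6 (log2 fold change -1.21, SE 0.36), the HSP90 co-chaperone TEBP (-0.36, SE 0.16), the thyroid receptor form THAA (-0.61, SE 0.29) and the vasopressin receptor V2R (-0.38, SE 0.16), each with an adjusted p of 0.873. IBP6, which binds insulin-like growth factors, was at 5.27, 5.98 and 4.89 CPM at station A, against 7.62, 10.9 and 19.2 CPM at station B.

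For C vs B the medians of the same lists were 0.18, -0.11, 0.34 and 1.01 with all fish, and 0.00, -0.06, 0.00 and -0.36 without station C replicate 2, beside 0.02 and 0.00 over all summed genes. The smallest p with all fish belonged to the binding protein IBP3 (log2 fold change 2.6, SE 1.14), the glucocorticoid-induced T22D3 (0.69, SE 0.30), MOT8 (2.32, SE 1.07) and AGTR2 (6.54, SE 2.68), each with an adjusted p of 0.846. The angiotensin receptor AGTR2 was at 0.198, 121.9 and 0.301 CPM in the fish of station C, against 0.176, 0.462 and 0.689 CPM at station B, and the thyroid hormone carrier MOT8 at 65.1, 842.4 and 75.7 CPM, against 71.5, 63.7 and 64.7 CPM. In both the difference came from replicate 2. Without it the smallest p of each list belonged to SOCS2, an inhibitor of growth hormone receptor signalling (1.07, SE 0.25, adjusted p = 0.752), again to T22D3 (0.40, SE 0.18, adjusted p = 0.752), to IOD1, the deiodinase that activates or clears thyroid hormone (-1.76, SE 0.31, adjusted p = 0.662), and to the calcitonin receptor-like CALRL (-0.27, SE 0.12, adjusted p = 0.752). SOCS2 was at 53.9 and 86.5 CPM in replicates 1 and 3 of station C, against 34.3, 38.5 and 27.9 CPM at station B, and IOD1 at 29.6 and 34.7 CPM, against 76.0, 107.0 and 145.3 CPM. Replicate 2 did not share either difference, with 32.1 CPM of SOCS2, inside the range of station B, and 216.1 CPM of IOD1, above it.

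The relation between the levels of the names changed with 1 library in most pairs. Of the 28 pairs among the 8 names other than FKBP5, 24 had a Pearson's r of log2(CPM + 1) of at least 0.5 in size over 9 fish and 8 over the 8 without station C replicate 2, 5 pairs had it in both with the same sign, and 12 pairs changed sign. It was -0.95 between PRLR and GHR over 9 fish and 0.41 over 8, and it was 0.84 and -0.02 between PRLR and IGF1R. The 5 pairs with the same sign were GHR and MCR (0.95 over 9 fish and 0.78 over 8), PRLR and THA (0.78 and 0.63), MCR and THB (0.79 and 0.54), IGF1R and DHI2 (-0.81 and -0.56), and IGF1R and GCR (-0.75 and -0.57). GCR and THA were at -0.06 over 9 fish and 0.65 over 8. By the same measure the names most like each member, among 7495 names with a mean of at least 5 CPM and among the 50 highest with and without that fish, were ATPI1 (0.996 and 0.903) and DTX3 (0.996 and 0.925) for PRLR. They were DSG1C (0.995 and 0.849) and CASQ2 (0.995 and 0.891) for GHR, PK1L2 and RGS21 for IGF1R, TLN1 and PPA5 for GCR, and SRBS2 and CD81 for MCR. They were PATL1 and MAGI1 for DHI2, AAPK2 and CEGT for THA, NEK6 and S40A1 for THB, and L14AA and ZBED5 for FKBP5, with r between 0.917 and 0.985 over 9 fish for the names from IGF1R to FKBP5. These are descriptions of 9 libraries that share a design and differ in depth, and they carry no test.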

How the data were processed

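Gill RNA of 9 sticklebacks was sequenced as paired Illumina reads. The authors trimmed the reads with Trimmomatic, assembled those of all fish de novo with Trinity, dropped transcripts of low expression, and annotated the rest with Trinotate. The authors deposited the expected counts per transcript and fish, as estimated by Salmon and without normalization, of which 48.8% are whole numbers. An assembly has no genome coordinates, and reads shared by similar transcripts are divided by the estimation, which sums per name avoid in part. All 9 columns were matched to fish by the sample labels.

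Counts were rounded and summed per first entry name, or per assembled gene where there was none. The 6 fish of each pair of stations were compared in R 4.3.3 by edgeR 4.0.16 (quasi-likelihood test, filterByExpr, TMM normalization), with Benjamini-Hochberg adjustment over the whole table. A 2-coefficient F test covered the 9 fish. The standard error is the absolute log2 fold change over the square root of F. DESeq2 1.42.0 was run as an alternative with filterByExpr or with 1 CPM in at least 2 of the 6 fish, and an adjusted p that it left out stays out. Other alternatives were size factors by the median of ratios, library totals, no filter, 1 fit of 9 fish, the replicate number as a block and leaving out each fish. Sums per assembled gene, levels per library total and DESeq2 without station C replicate 2 were added after the data were seen. Figures were drawn with matplotlib 3.10.9. The tests were also run on simulated counts with 200 changed rows, and their power is not given here.

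The members, the gene lists and the marker lists were chosen with earlier results of these data known. The text names all members, describes their assembled genes with a mean of at least 1 CPM and their transcripts with at least 10% of the name's sum or absent from a station and at least 1 CPM in every fish of another, and names from each list the smallest p against station B. Some features outside this rule are also described, such as the minor PRLR transcripts of DN552_c0_g2 and the THA transcript DN2559_c1_g1_i16. The 4 measured of 10 red blood cell names summed to 3201.3 to 13825.4 CPM in 8 fish and 16859.8 CPM in station C replicate 2. Most of the latter was HBB2 (16114.6 CPM). B3AT went the other way, with 23.7 CPM there against 115.8 to 569.8 CPM, and HEM0 was inside the range of the others. The 3 measured of 8 leukocyte names summed to 323.9 to 1115.8 CPM in the 8 fish and 235.5 CPM in that library, where MPEG1 (124.3 CPM) was inside the range of the others.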

Additional observations from a re-analysis of the deposited data

How the results depend on the processing

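No member was called by edgeR under any alternative, and the counts over all summed genes bear on the members only as background. For A vs B the summed genes called were 0 in the test reported, beside 1193 with an unadjusted p below 0.05, 8 with no filter on low counts, 110 with DESeq2 after filterByExpr and 116 after the filter on CPM, and 0 to 5 when a fish was left out, the 5 without station B replicate 2. For C vs B they were 0, beside 819, and 61 and 73 with DESeq2, or 154 with DESeq2 after filterByExpr without station C replicate 2. For C vs A 1 was called, beside 927, an unnamed assembled gene (DN4146_c0_g1, log2 fold change 8.08, adjusted p = 0.0472) that is no member, and the count was 0 with median-of-ratios size factors, with library totals, with all 9 fish in the fit and without each fish in turn, and 270 and 221 with DESeq2, or 418 without station C replicate 2. Over the 3 stations together the count was 0, and 0 to 1 when a fish was left out, the 1 without station B replicate 2. Of transcripts, 0 were called in each pair by edgeR, by DESeq2 579 and 626 (A vs B), 729 and 611 (C vs B), and 1371 and 1096 (C vs A), or 1443 (C vs B) and 2284 (C vs A) without station C replicate 2, and with all 9 fish in the fit 1, 9 and 5. Per assembled gene DESeq2 called 124, 57 and 249, and edgeR 0, 0 and 1. The cause of the gap between the 2 tools was not tested.

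With the replicate number as a block 0 summed genes were called in each of the 3 pairs, and the log2 fold change of GHR was 1.0 for C vs B and 0.72 for C vs A. Deviations of fish with the same number had correlations of -0.16 to 0.32 over 9 pairs, 1 of them above 0.1. Those of fish with different numbers were -0.25 to 0.21 over 18 pairs, 4 of them above 0.1. The ranges overlapped, so no pairing by number was seen, although the highest value belonged to a pair with the same number. Library totals in place of TMM moved the median log2 fold change of all summed genes to -0.10 (C vs B) and -0.12 (C vs A). Without station C replicate 2 THB was at -0.39 for C vs A, against -0.02 with it, and MCR at -0.60, against 0.84. DHI2 and FKBP5 were measured with at most 107.6 estimated counts in a fish, and 3 fish per station limit the precision of every fold change.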
